A study of Homo sapiens with 12 samples.

Results

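Interferon-stimulated genes are the genes that cells switch on when interferon binds its receptor. The 50 described here were listed by symbol, were matched to rows of the gene count table by Ensembl identifier, and made up 50 of 58288 rows. The rule used symbols and no measured value. The cells were HL-60/S4, a human line derived from an acute promyelocytic leukemia that grows as promyelocytes and matures into a granulocytic form with all-trans retinoic acid (ATRA). The 4 groups were undifferentiated promyelocytes with vehicle, undifferentiated promyelocytes with TNF-α, ATRA-differentiated granulocytes with vehicle, and ATRA-differentiated granulocytes with TNF-α. Granulocytes had received 1 µM ATRA for 4 days. Exposure to TNF-α (16 ng/ml) or water as vehicle lasted 2 h. Each group had 3 flasks, each sequenced as 1 library of ribosomal RNA-depleted RNA. All groups share 1 cell line and 1 growth medium with added calcium, so flasks stand in for replicate cultures of that line and not for donors, and the p-values measure the spread between flasks. The promyelocytes and granulocytes were run as separate experiments and suspended at different densities. Cell form and experiment therefore cannot be told apart where levels or TNF-α responses of the 2 forms are compared.

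As background, type I interferons signal through IFNAR1 and IFNAR2 to the kinases JAK1 and TYK2. These activate transcription factors that, with IRF9, bind the interferon-stimulated response element (ISRE) in promoters. Interferon-γ signalling acts through a different element (GAS), and TNF-α signals mainly through NF-κB, which binds κB motifs. The products of these genes block viral entry, bind or degrade foreign RNA, tag proteins with ISG15 or attack membranes around intracellular microbes, and neutrophils and macrophages use many of them.

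RefSeq promoters (GRCh38.p14, 250 bases before the start site and 50 from it) were found for 40 of the 50 genes. The ISRE core was searched as GAAA, any 2 bases and GAAA, the GAS core as TTC, any 3 bases and GAA, both on either strand, and the κB motif by its degenerate consensus, also on both strands. The ISRE core was present in 27 of 40 promoters (67.5%), against 3.65% of 27305 promoters in the same reference. The GAS core was in 8 (20%, against 7.88% of all) and the κB motif in 6 (15%, against 5.72% of all). A match describes the letters in this window and is not a bound site.

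These promoter stretches are picked examples, all with an ISRE core. They come from members that rose (OAS3, IFIH1, GBP4, GBP1) or fell (IFIT1, IFIT3, HERC5, SAMD9) with TNF-α in granulocytes. They do not show how common the motifs are. Of 14 lower members with a promoter entry, 6 hold an ISRE core, and of 9 higher members, 4 hold a κB motif. Each stretch runs 5′ to 3′ on the gene's own strand, with ISRE core and κB matches in capitals. OAS3 (chr12:112938324-112938473, plus strand) holds 2 ISRE cores, starting -143 and -12 bases from the start site, and a κB match, on both strands, at -130 to -120. IFIH1 (chr2:162318685-162318849, minus strand) holds 3 ISRE cores, of which the pair at -159 to -144 overlap, and a κB match at -76. GBP4 (chr1:89198937-89199002, minus strand) holds a κB match and an ISRE core. GBP1 (chr1:89065308-89065348, minus strand) holds an ISRE core, as does SAMD9 (chr7:93118094-93118124, minus strand). IFIT1 (chr10:89392493-89392538, plus strand) and IFIT3 (chr10:89327832-89327892, plus strand) hold 2 ISRE cores each. HERC5 (chr4:88456984-88457059, plus strand) holds 3, of which 2 overlap.
OAS3: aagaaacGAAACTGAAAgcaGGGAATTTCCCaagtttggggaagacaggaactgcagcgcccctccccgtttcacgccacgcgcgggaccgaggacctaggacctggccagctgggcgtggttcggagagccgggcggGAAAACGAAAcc
IFIH1: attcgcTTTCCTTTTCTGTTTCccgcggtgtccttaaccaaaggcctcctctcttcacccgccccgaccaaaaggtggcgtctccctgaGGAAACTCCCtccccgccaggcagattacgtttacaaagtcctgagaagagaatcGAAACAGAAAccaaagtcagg
GBP4: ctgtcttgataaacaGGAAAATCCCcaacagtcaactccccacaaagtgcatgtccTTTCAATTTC
GBP1: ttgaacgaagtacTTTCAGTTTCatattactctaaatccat
IFIT1: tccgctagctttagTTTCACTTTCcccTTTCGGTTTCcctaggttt
IFIT3: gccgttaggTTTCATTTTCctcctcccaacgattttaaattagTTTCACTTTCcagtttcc
HERC5: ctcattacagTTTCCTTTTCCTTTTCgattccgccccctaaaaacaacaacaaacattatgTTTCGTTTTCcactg
SAMD9: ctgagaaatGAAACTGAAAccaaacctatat

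Both an ISRE core and a κB motif are present in 5 promoters, those of BST2, GBP4, IFIH1, IFITM3 and OAS3. The last 4 rose in TNF-α-treated granulocytes, and BST2 had a log2 change of -0.12 with all TNF-α libraries below all vehicle libraries. Among members called higher in granulocytes, 9 have a promoter entry, of which 8 hold an ISRE core and 4 a κB motif. Among the 14 lower members with an entry, 6 hold an ISRE core and 0 a κB motif. Among the 14 not called, 10 hold an ISRE core and 2, BST2 and XAF1, a κB motif. The members were counted by their calls after those calls were known, so these shares describe the sequences and support no test. GBP2 and GBP5 have no entry.

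**Figure D1:**
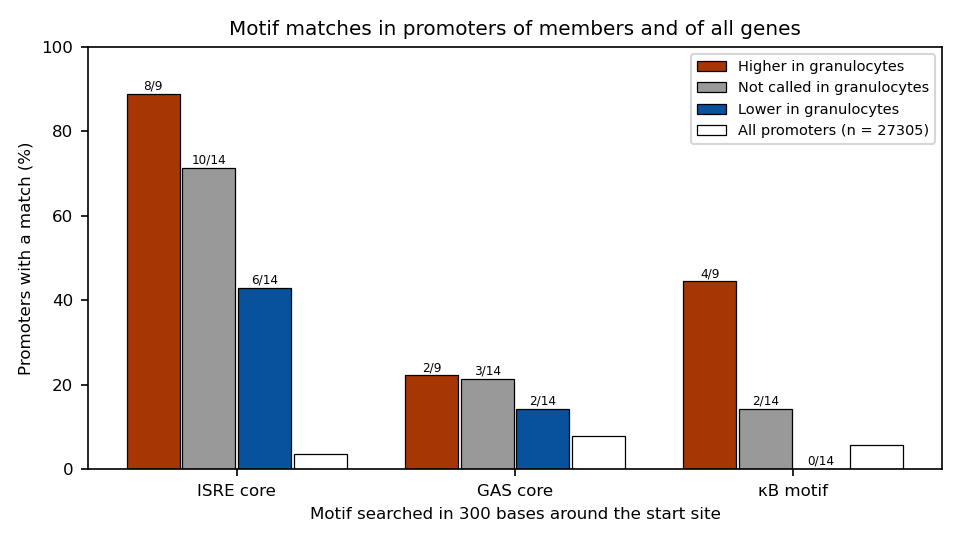
Share of RefSeq promoters (y axis, percent) that hold an ISRE core, a GAS core or a κB motif (x axis), for members called higher, lower or not called in granulocytes and for all promoters of the reference. Numbers above the bars are promoters with a match of promoters in the group, and κB matches were found in 4 of 9 higher, 2 of 14 uncalled and 0 of 14 lower members.

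Libraries held 22829189 to 31895061 counted fragments. Values below are normalized counts (CPM, with TMM scaling done separately in each cell form), and 3 counts correspond to 0.0941 to 0.131 CPM per library. All 10 of the fixed fast NF-κB targets rose in both forms, TNFAIP3 by 3.63 and 5.08 and NFKBIA by 3.91 and 5.51 on the log2 scale (promyelocytes and granulocytes, edgeR). Granulocytic markers summed to 162 to 170 CPM in vehicle promyelocytes and 271 to 288 CPM with TNF-α, and to 4991 to 5277 CPM and 5569 to 5875 CPM in granulocytes. Single genes weighed heavily in these sums. Mean CYBB was 112 CPM with vehicle and 218 CPM with TNF-α in promyelocytes, and mean NCF1 1223 and 1940 CPM in granulocytes. Of the 8 markers, 2 (NCF1, CYBB) were called higher and 1 (CSF3R) lower in promyelocytes. In granulocytes 3 (ITGAX, NCF1, FPR1) were higher and 3 (ITGAM, CD38, CSF3R) lower. Promyelocyte markers summed to 7819 to 8430 CPM and 6463 to 7352 CPM in promyelocytes, and to 2247 to 2478 CPM and 2176 to 2361 CPM in granulocytes. Of these MYB, a factor of immature cells, fell by 0.46 in promyelocytes and 1.65 in granulocytes. In promyelocytes MPO, PRTN3 and CTSG were also called lower, and AZU1 and ELANE were not called. In granulocytes MPO (-0.04), AZU1 (0.03), PRTN3 (0.13) and CTSG (-0.14) were not called, and ELANE did not pass the filter. Of the macrophage markers, MRC1, CD163, MSR1 and MARCO were at 3 counts or fewer in every library of the 4 groups. CSF1R made up nearly all of that list in granulocytes, at 49.3 to 51.1 CPM with vehicle and 29.7 to 33.2 CPM with TNF-α, while CD14 was at 0.167 to 0.202 CPM and 0.224 to 0.429 CPM and did not pass the filter. The part of these marker shifts in the results below was not tested. In bulk RNA, fewer cells of a type and less RNA per cell cannot be told apart.

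As over all genes tested, TNF-α changed a smaller share of these genes in promyelocytes than in granulocytes. In granulocytes more members fell than rose, while over all genes the 2 directions were nearly equal. Of 50 members, 41 passed the expression filter in promyelocytes, and 6 were higher and 3 lower with TNF-α (edgeR quasi-likelihood test, Benjamini-Hochberg adjusted p under 0.05). That was 22.0% of those tested, beside a background of 14.8% of all tested genes (8.15% higher, 6.65% lower). In granulocytes 47 passed, and 11 were higher and 19 lower, 63.8% beside a background of 49.2% (24.4% higher, 24.8% lower). The median log2 fold change was -0.02 in promyelocytes and -0.19 in granulocytes, beside -0.0094 and -0.0047 over all genes tested. At least 1 on the log2 scale was reached by 3 members in promyelocytes and 5 in granulocytes, all upward, beside a background of 2.47% and 10.3%. All TNF-α libraries lay above all vehicle libraries for 9 members in promyelocytes (background 16%) and 11 in granulocytes (background 27.3%). They lay below for 6 (background 15.1%) and 19 (background 27.9%). DESeq2 called 27 members in granulocytes, beside a background of 33%.

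OAS3, IFIH1, GBP2, GBP5 and PARP14 rose in both forms, and TRIM25 and SP110 fell in both. XAF1 rose and TRIM21 fell in promyelocytes alone. In granulocytes alone, ISG20, GBP3, IFITM3 and SAMD9L rose and 17 members fell. GBP1 and GBP4 rose in granulocytes and did not pass the filter in promyelocytes. No member was called in opposite directions in the 2 forms. These counts set calls side by side and are not tests of the difference.

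**Figure D2:**
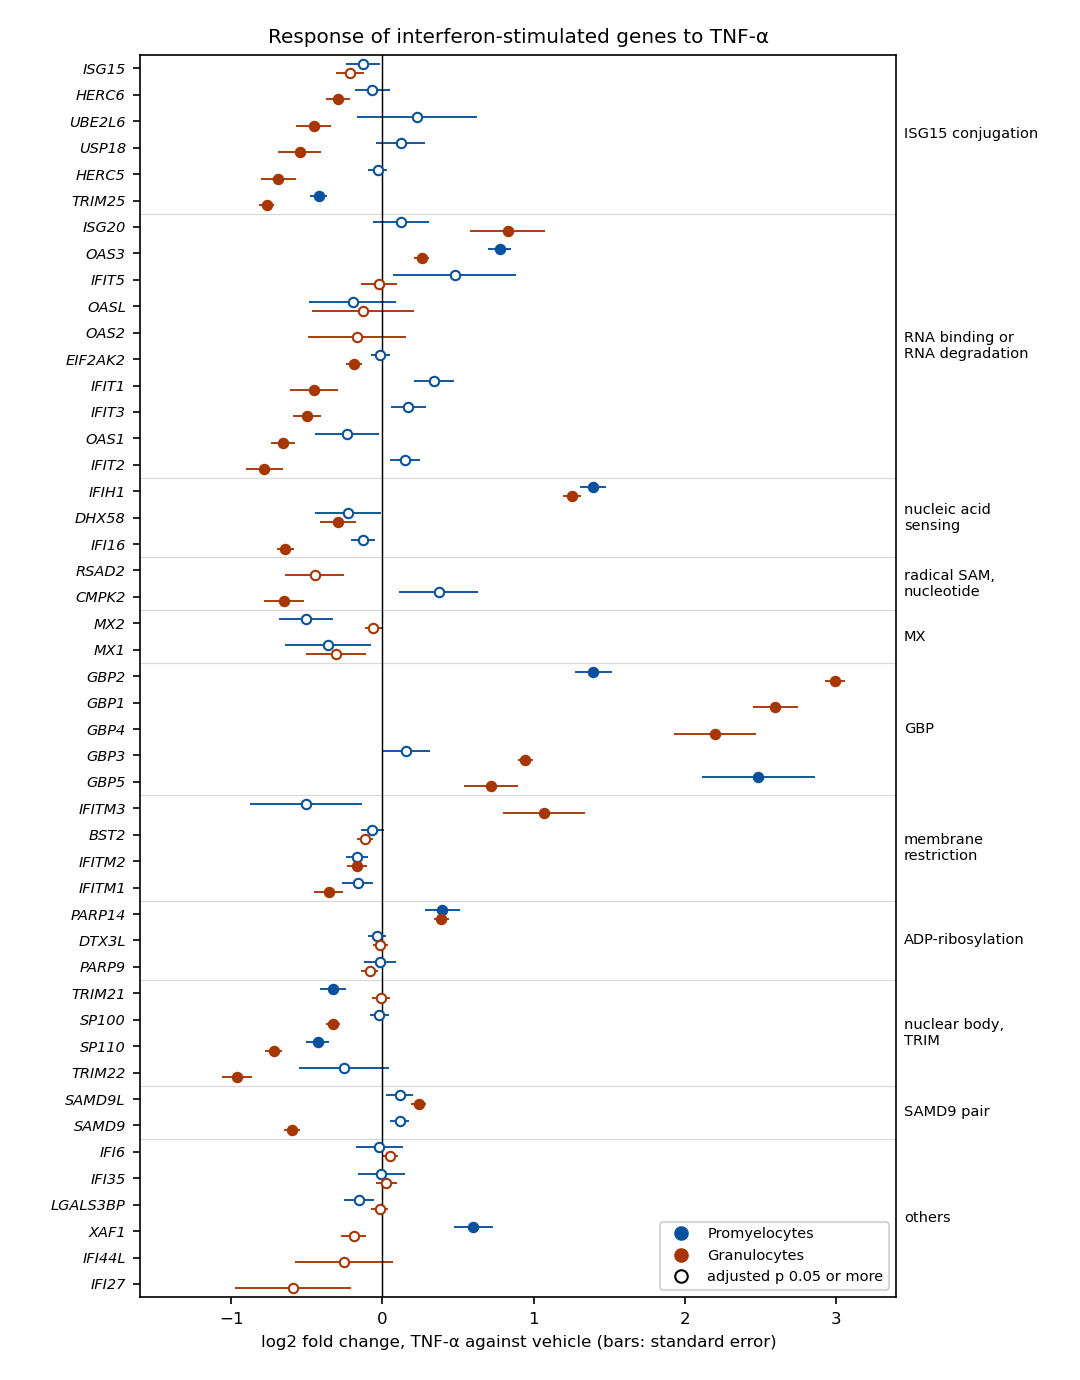
Log2 fold change of each tested member with TNF-α against vehicle (x axis), ordered by role, in promyelocytes (blue) and granulocytes (brown). Bars are standard errors, and filled points have an adjusted p under 0.05. In granulocytes the guanylate-binding proteins reach from 0.72 to 2.996, and most granulocyte points of ISG15 conjugation and RNA binding lie below 0.

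The guanylate-binding proteins are interferon-inducible GTPases that coat microbes and the vacuoles around them. All 5 rose in granulocytes (24.4% of all genes tested were called higher there), and they lie side by side at chromosome 1:89006666-89272804. GBP2 had 4.35, 5.64 and 4.61 CPM in vehicle promyelocytes and 13.8, 12.4 and 12.2 CPM with TNF-α. In granulocytes it had 11.1, 11.9 and 12.5 CPM with vehicle and 102, 94.0 and 88.5 CPM with TNF-α. The groups did not overlap in either form, and the granulocyte TNF-α level stood far above the other 3 groups. GBP2 rose by 1.40 ± 0.12 (SE) on the log2 scale in promyelocytes (2.63-fold, adjusted p = 4.34e-08, edgeR) and by 2.996 ± 0.07 in granulocytes (7.98-fold, adjusted p = 3.53e-30, edgeR). Of its exon bases, 9.89% overlap GBP7 on the same strand.

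GBP1 and GBP4 were nearly silent in promyelocytes. GBP1 had 0, 3 and 0 counts with vehicle and 4, 0 and 0 with TNF-α, and GBP4 had 0, 2 and 0 and then 3, 2 and 0. These are at or close to the floor, and no fold is given. In granulocytes GBP1 went from 1.54, 1.77 and 1.52 CPM to 10.2, 10.5 and 8.62 CPM, without overlap. Its log2 fold change was 2.60 ± 0.15 (6.06-fold, adjusted p = 3.26e-17, edgeR). GBP4 went from 0.847, 0.534 and 0.438 CPM to 2.73, 2.61 and 2.98 CPM, a log2 change of 2.20 ± 0.27 (adjusted p = 1.52e-08, edgeR).

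GBP5, which also promotes inflammasome assembly, had 0.224, 0.183 and 0.278 CPM in vehicle promyelocytes and 1.56, 1.12 and 1.24 CPM with TNF-α. In granulocytes it had 2.81, 2.27 and 2.36 CPM and then 4.74, 3.89 and 3.61 CPM. The log2 rise was 2.49 ± 0.37 in promyelocytes (adjusted p = 6.31e-05, edgeR) and 0.72 ± 0.18 in granulocytes (adjusted p = 8.6e-04, edgeR), and the rise was the larger in promyelocytes. Its level per length was 0.160 RPKM with TNF-α in promyelocytes beside 0.305 RPKM with vehicle in granulocytes. GBP3 had 4.83, 4.69 and 3.64 CPM in vehicle promyelocytes and 4.11, 5.27 and 5.27 CPM with TNF-α, and these groups overlapped. In granulocytes GBP3 went from 57.5, 56.3 and 54.3 CPM to 107, 108 and 108 CPM, a log2 rise of 0.95 ± 0.05 (adjusted p = 3.97e-18, edgeR).

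**Figure D3:**
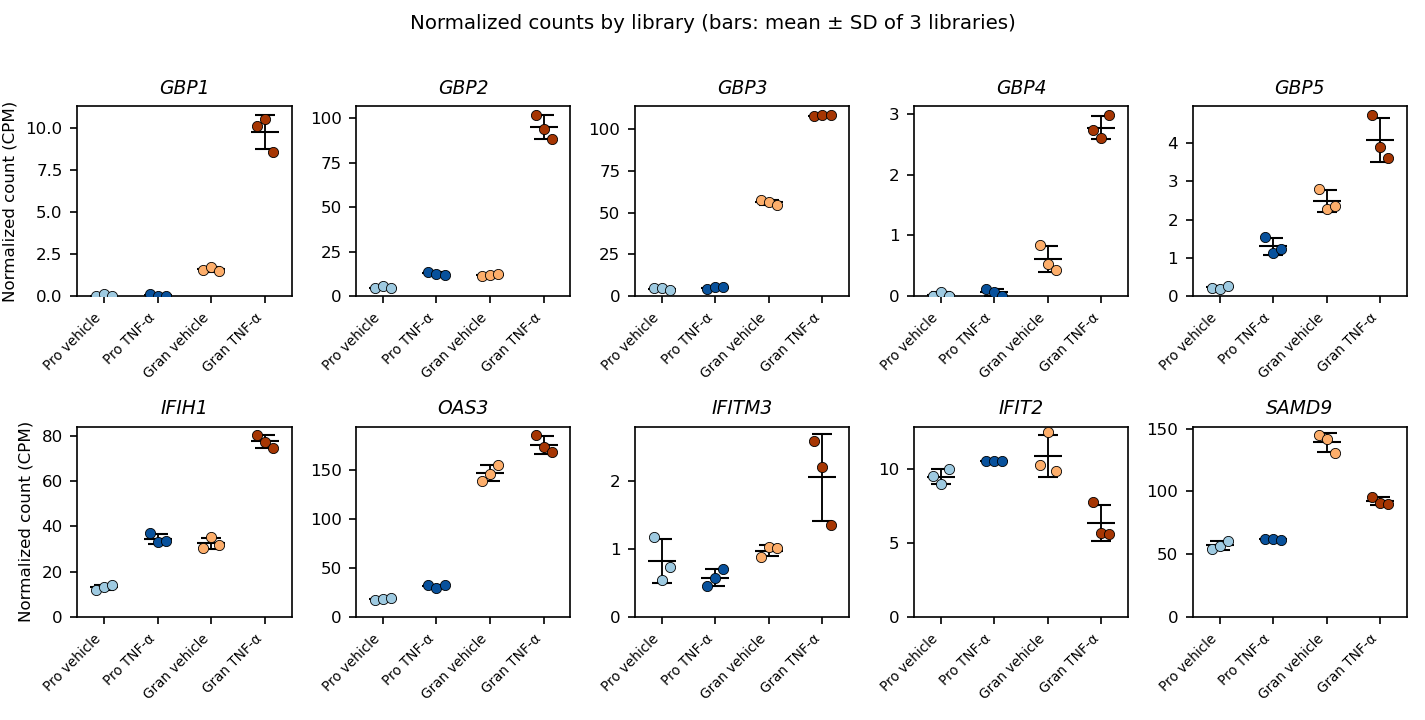
Normalized counts (CPM, y axis, from 0) of the 10 members with the largest changes or the clearest differences between cell forms, for the 3 libraries of each group (Pro, promyelocytes, and Gran, granulocytes, x axis), with mean ± SD. GBP2 reached 88.5 to 102 CPM in TNF-α-treated granulocytes against 11.1 to 12.5 CPM with vehicle, and IFIT2 and SAMD9 were lower with TNF-α in granulocytes.

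IFIH1 encodes MDA5, a cytoplasmic sensor of long double-stranded RNA. It had 12, 13.3 and 14.2 CPM in vehicle promyelocytes and 37.1, 33.1 and 33.4 CPM with TNF-α, and 30.4, 35.3 and 31.8 CPM and 80.7, 77.5 and 74.7 CPM in granulocytes. All TNF-α libraries lay above all vehicle libraries in each form. The log2 rise was 1.39 ± 0.09 (adjusted p = 1.8e-10, edgeR) and 1.26 ± 0.06 (adjusted p = 6.97e-20, edgeR), and the difference between them was -0.10 ± 0.10 (adjusted p = 0.535, edgeR). A p that misses the threshold does not show that the responses were equal. DHX58, the related LGP2, had a log2 change of -0.23 in promyelocytes and -0.29 in granulocytes (adjusted p = 0.0403, edgeR). Its granulocyte groups overlapped, and without vehicle library 1 it was not called (adjusted p = 0.177, edgeR). IFI16, a DNA sensor, had -0.13 (adjusted p = 0.335, edgeR) and fell by 0.64 ± 0.06 in granulocytes (adjusted p = 4.07e-12, edgeR), from 72.4 to 77.9 CPM down to 45.4 to 51.4 CPM.

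Among the RNA-binding and RNA-degrading members, OAS3 rose and its neighbour OAS1 fell in granulocytes. OAS1, OAS2 and OAS3 make the short oligoadenylate signal that activates RNase L. OAS3 had 17.7, 18.3 and 19.1 CPM in vehicle promyelocytes and 32.2, 29.8 and 32.2 CPM with TNF-α. In granulocytes it had 139, 145 and 155 CPM with vehicle and 185, 173 and 167 CPM with TNF-α. The libraries did not overlap, and the log2 rise was 0.78 ± 0.08 (adjusted p = 2.2e-07, edgeR) and 0.26 ± 0.05 (adjusted p = 5.79e-05, edgeR). OAS1 went from 21.2 to 22.7 CPM with vehicle in granulocytes to 13.7 to 14.1 CPM with TNF-α, a fall by 0.66 ± 0.08 (adjusted p = 5.01e-09, edgeR). OAS2 was at 0.679 to 1.05 CPM in granulocytes and not called. ISG20, an exonuclease, rose by 0.83 ± 0.25 in granulocytes from 1.07 to 1.31 CPM to 1.76 to 2.39 CPM (adjusted p = 0.00556, edgeR).

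Some IFIT proteins bind RNA ends that lack the host cap. IFIT2 had 9.55, 8.98 and 9.99 CPM in vehicle promyelocytes and 10.6, 10.6 and 10.5 CPM with TNF-α, and in granulocytes it went from 10.3, 12.5 and 9.88 CPM to 7.78, 5.72 and 5.64 CPM. The TNF-α libraries lay above all vehicle libraries in promyelocytes and below all of them in granulocytes. The log2 change was 0.15 ± 0.10 in promyelocytes (adjusted p = 0.371, edgeR), and in granulocytes IFIT2 fell by 0.78 ± 0.12 (adjusted p = 1.43e-06, edgeR). IFIT3 fell by 0.50 ± 0.09 (adjusted p = 1.98e-05, edgeR) and IFIT1 by 0.45 ± 0.16 (adjusted p = 0.0173, edgeR, and 0.0607 without vehicle library 2). IFIT5 was at -0.02 (adjusted p = 0.888, edgeR). EIF2AK2, the kinase PKR, fell by 0.19 ± 0.05 in granulocytes (adjusted p = 0.00331, edgeR, and 0.105 with GC and length trends removed), and OASL was not called in either form.

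Of 6 genes grouped under ISG15 conjugation, 5 fell in granulocytes and 1 fell in promyelocytes. Over all genes tested, 24.8% were called lower in granulocytes and 6.65% in promyelocytes. ISG15 itself, the ubiquitin-like tag, was at 14.6 to 17.7 CPM with vehicle and 12.5 to 15 CPM with TNF-α in granulocytes, with overlapping groups (log2 change -0.21, adjusted p = 0.0577, edgeR). It was called with GC and length trends removed (-0.36, adjusted p = 9.29e-04, edgeR) and without vehicle library 2 or 3 or TNF-α library 1 (adjusted p = 0.0451, 0.0396 and 0.0115, edgeR). The conjugating enzyme UBE2L6 fell by 0.45, the ligase HERC5 by 0.69, its relative HERC6 by 0.29, and the ISG15 protease USP18 by 0.55 in granulocytes. TRIM25, which ubiquitinates RIG-I and is itself modified by ISG15, fell in both forms. It had 211, 203 and 201 CPM in vehicle promyelocytes and 156, 147 and 157 CPM with TNF-α, and 233, 232 and 239 CPM and then 142, 135 and 138 CPM in granulocytes. Its groups were separate in both forms, with log2 changes of -0.42 ± 0.06 (adjusted p = 1.65e-05, edgeR) and -0.77 ± 0.05 (adjusted p = 2.75e-16, edgeR). Per length TRIM25 stood at 30.8 RPKM in vehicle promyelocytes, the highest of the 50 members there.

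CMPK2, a mitochondrial nucleotide kinase, fell by 0.65 ± 0.13 in granulocytes (adjusted p = 8.24e-05, edgeR), and its divergent neighbour RSAD2, the radical SAM enzyme viperin, had -0.45 (adjusted p = 0.0574, edgeR), with all TNF-α libraries below all vehicle libraries. RSAD2 was called without vehicle library 2 (adjusted p = 0.0419, edgeR) or TNF-α library 2 (adjusted p = 0.0357, edgeR). MX1 and MX2, dynamin-like GTPases that bind viral nucleocapsids, were not called in the fit of either form. MX2 had 4.31, 4.84 and 4.20 CPM in vehicle promyelocytes and 2.59, 2.81 and 3.94 CPM with TNF-α, without overlap. Its log2 change there was -0.50 ± 0.18 (adjusted p = 0.0643, edgeR), and it was called in the fit of all 12 libraries (-0.52, adjusted p = 0.00573, edgeR) and without TNF-α library 3 (-0.71, adjusted p = 0.0152, edgeR). In granulocytes MX2 was at 54.7 to 57.3 CPM with vehicle and 50.4 to 55.7 CPM with TNF-α.

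The membrane restriction factors split. IFITM3, which blocks viral entry at endosomes, had 1.18, 0.550 and 0.729 CPM in vehicle promyelocytes and 0.456, 0.577 and 0.699 CPM with TNF-α, and these overlapped (log2 change -0.51 ± 0.37, adjusted p = 0.421, edgeR). In granulocytes it had 0.885, 1.03 and 1.01 CPM and then 2.59, 2.22 and 1.35 CPM. The 3 TNF-α libraries lay above all vehicle libraries, and their spread was wide. The log2 rise was 1.07 ± 0.27 (adjusted p = 0.00124, edgeR). IFITM1 fell by 0.35 ± 0.10 in granulocytes (adjusted p = 0.00213, edgeR) and IFITM2 by 0.17 ± 0.07 (adjusted p = 0.0361, edgeR, and 0.317 without TNF-α library 3). Of the IFITM1 exon bases, 32.5% overlap IFITM2 on the same strand, where read pairs are not counted, and the IFITM genes are alike in sequence, so the split of reads among them is uncertain. BST2, a tether of budding virions, was not called (log2 change -0.12, adjusted p = 0.0777, edgeR), except with GC and length trends removed (-0.17, adjusted p = 0.00404, edgeR).

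PARP14 rose in both forms, and its partners PARP9 and DTX3L, an ADP-ribosyltransferase complex, had log2 changes of -0.01 and -0.04 in promyelocytes and -0.08 and -0.01 in granulocytes. PARP14 had 12.2, 12.1 and 14.4 CPM in vehicle promyelocytes and 19.2, 18.2 and 13.8 CPM with TNF-α, which overlap through 1 library (0.40 ± 0.11, adjusted p = 0.0236, edgeR, and 0.114 without TNF-α library 2). In granulocytes it went from 107 to 112 CPM to 139 to 148 CPM (0.39 ± 0.05, adjusted p = 1.93e-08, edgeR). PARP12 had 1 read over all 12 libraries.

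Of the nuclear body and TRIM genes, TRIM22 had the largest fall of the members tested in either form. TRIM22, which restricts viral transcription, went from 17.9, 17.8 and 17.4 CPM to 8.90, 10.6 and 7.54 CPM in granulocytes, a fall by 0.96 ± 0.10 (adjusted p = 1.47e-10, edgeR). Of its exon bases, 10.7% overlap OR56B1 on the same strand. SP110 fell by 0.43 ± 0.07 in promyelocytes (adjusted p = 3.09e-04, edgeR) and by 0.72 ± 0.06 in granulocytes (adjusted p = 2.56e-13, edgeR), and SP100 by 0.33 in granulocytes. TRIM21, the cytosolic antibody receptor, fell by 0.33 ± 0.09 in promyelocytes (adjusted p = 0.0152, edgeR, and 0.0592 without vehicle library 3) and was at -0.01 in granulocytes.

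The adjacent genes SAMD9 and SAMD9L, which restrict poxviruses, went opposite ways in granulocytes. SAMD9 had 53.7, 56.9 and 60.4 CPM in vehicle promyelocytes and 61.8, 62.2 and 61.0 CPM with TNF-α, and 145, 142 and 130 CPM and then 95.6, 90.7 and 89.6 CPM in granulocytes. The groups did not overlap in either form, but the promyelocyte change was 0.11 ± 0.06 (adjusted p = 0.25, edgeR), and the granulocyte change was -0.60 ± 0.05 (adjusted p = 2.84e-12, edgeR). SAMD9L rose by 0.24 ± 0.05 in granulocytes (adjusted p = 9.1e-05, edgeR), from 111 to 118 CPM to 136 to 137 CPM.

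Of the remaining members, XAF1, an apoptosis-linked antagonist of XIAP, rose by 0.60 ± 0.13 in promyelocytes (adjusted p = 0.00273, edgeR), from 4.76 to 6.24 CPM to 7.81 to 8.73 CPM, and had -0.19 in granulocytes (adjusted p = 0.0584, edgeR). IFI6, IFI35 and LGALS3BP were not called in either form. IFI27 and IFI44L passed only in granulocytes and were not called, IFI44 passed in neither form (at most 14 counts), and EPSTI1 had 0 reads in all 12 libraries.

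**Figure D4:**
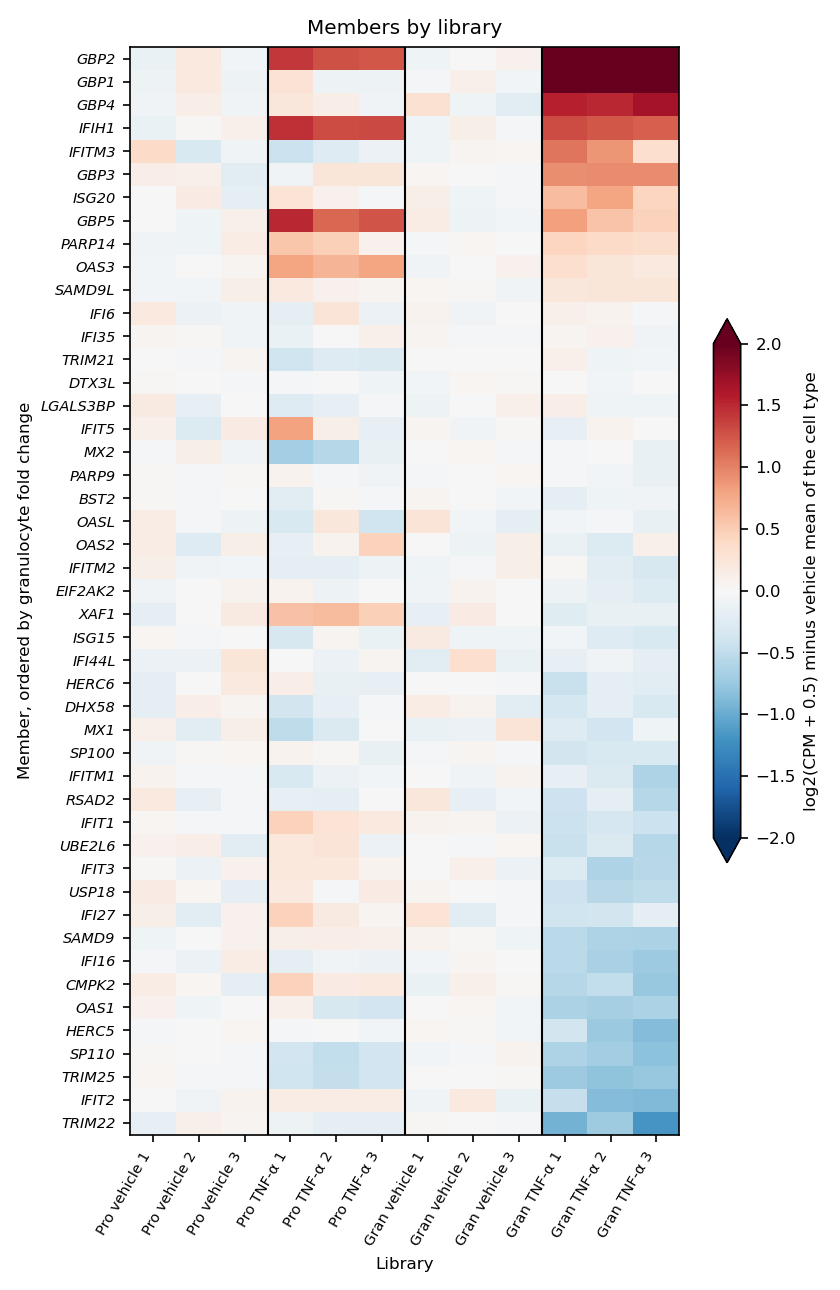
Members that passed the filter in granulocytes (rows, ordered by granulocyte fold change) across the 12 libraries (columns), coloured by log2(CPM + 0.5) minus the vehicle mean of the same cell form. The TNF-α granulocyte columns run from red at the top (GBP2 rose by 2.996 on the log2 scale) to blue at the bottom (TRIM22 fell by 0.96), and the promyelocyte TNF-α columns are paler over the lower rows.

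Of 19 pairs of neighbouring members less than 250 kb apart, 12 had both members called in granulocytes. Of these, 3 were called in opposite directions and the others in the same direction. The opposite pairs were OAS1 and OAS3 (5.13 kb apart), SAMD9 and SAMD9L (12.03 kb) and IFITM1 and IFITM3 (4.40 kb). These opposite pairs were picked out after their values were seen and were not set against neighbouring genes outside the members.

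The difference of the responses, tested in 1 model over the 12 libraries, was called for 19 of 47 members (40.4%), 5 higher in granulocytes and 14 lower, beside a background of 24% (14.1% higher and 9.88% lower). Under DESeq2's size factors, 25% of the members called were on the higher side, against 26.3% with TMM, while over all genes the share moved from 58.9% to 46.7%. At a threshold of 0.01, 3 members were on the higher side, beside a background of 9.56%. GBP2 led with 1.64 ± 0.13 (adjusted p = 4.14e-10, edgeR), and SAMD9 followed at -0.67 ± 0.08 (adjusted p = 3.6e-07, edgeR). GBP3 differed by 0.83 ± 0.13 (adjusted p = 3.84e-05, edgeR), OAS3 by -0.48 ± 0.09 (adjusted p = 1.43e-04, edgeR) and IFIT2 by -0.89 ± 0.17 (adjusted p = 2.16e-04, edgeR). GBP5 was further from 0 than these, at -1.73 ± 0.38 (adjusted p = 0.00132, edgeR). GBP1 and GBP4 had 2.23 ± 1.45 and 1.03 ± 1.69, and neither was called (adjusted p = 0.291 and 0.717, edgeR). Their promyelocyte counts were at or close to the floor, so the size of their differences is not read. As with levels, the differences of responses cannot be assigned to cell form rather than to experiment.

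To set the vehicle levels of the 2 forms side by side, all 12 libraries were TMM-scaled together. In the vehicle libraries, 41 members were higher in all granulocyte libraries than in all promyelocyte libraries, against 37.3% of all genes tested. HERC5, IFIT1, OASL and ISG20 were lower in all of them, against 37.1% of all genes tested. The median log2 ratio was 1.63 over the members tested and 0.01 over all genes tested. These are separate experiments, so the values are a description. Per length, vehicle granulocyte levels of the 47 members tested there ran from IFI6 at 96.7 RPKM, BST2 at 60.8 RPKM and LGALS3BP at 52.4 RPKM down to GBP4 at 0.0990 RPKM.

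The other genes of the interferon pathway were counted from a fixed list of 36. In promyelocytes 25 passed the filter, 13 rose and 2 fell (60% called, beside 14.8%), and in granulocytes 26 passed, 12 rose and 6 fell (69.2%, beside 49.2%). Of 9 interferon ligands none passed. IFNB1, a type I interferon, had 1, 1 and 1 counts in vehicle promyelocytes and 3, 6 and 7 with TNF-α. In all granulocyte libraries IFNB1 had 0, which allows up to 3 counts per library. IFNE, another ligand of the list, had at most 5 counts in any library.

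The type I receptor chain IFNAR1 rose slightly in both forms (0.19 and 0.18), and IFNAR2 was at 0.01 in promyelocytes and fell by 0.24 in granulocytes. The kinases JAK1 (0.24 and 0.22) and TYK2 (0.79 and 0.71) were called higher in both forms. STAT2 was at -0.12 in promyelocytes and fell by 0.54 in granulocytes. IRF9 was at 0.43 (adjusted p = 0.185, edgeR) and 0.03, IRF1 at 0.13 and 0.00, and IRF7 at 0.47 (adjusted p = 0.139, edgeR) and 0.03, none called.

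Another 6 genes of this list changed by at least 1 in a form. IFNGR2, the second chain of the interferon-γ receptor, rose by 1.28 and 2.09, and the kinase IKBKE by 1.14 and 1.83. SOCS1, a feedback inhibitor of JAK kinases, rose by 2.83 ± 0.23 in promyelocytes (adjusted p = 1.92e-08, edgeR) and was at -0.04 in granulocytes, a difference of -2.83 ± 0.30 (adjusted p = 6.22e-08, edgeR). IRF8, a myeloid transcription factor, rose by 0.75 and 4.90, from 0.192 to 0.434 CPM to 9.52 to 11.4 CPM in granulocytes. IRF5 fell by 0.90 and 2.13, and STING1, the adaptor of DNA sensing, by 0.32 and 1.21.

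The genes whose level followed GBP2 most closely over the 12 libraries (TMM-scaled together), among 12738 compared, were MTF1 (Pearson r = 0.998), UXS1 (0.996) and NAB1 (0.994). The libraries share 4 groups, so these values describe the group pattern.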

How the data were processed

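RNA from 12 flasks of HL-60/S4 cells was depleted of ribosomal RNA and sequenced in pairs. Per the study's methods and the file header, the authors aligned reads to hg38 with STAR 2.5.3a and deposited raw counts per gene from featureCounts 1.5.2 (GENCODE 27, strand option 2, primary alignments). Pairs overlapping more than 1 gene are left out by that counter's default. Columns were matched to the labelled samples by name.

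Here, each cell form was fitted by itself with edgeR 4.0.16 (filterByExpr with minimum count 10 and total 15, TMM, glmQLFit and glmQLFTest, prior count 0.125), with Benjamini-Hochberg adjustment over all genes tested and a threshold of 0.05. The difference of responses came from all 12 libraries. Standard errors were derived from the F statistic. Scripts were tested on simulated data. Depth was 22829189 to 31895061 fragments. The replicate numbers were checked for pairing and do not pair the flasks. Named genes were members with an adjusted p under 0.05 and an absolute log2 change of at least 1, and the 5 with the smallest p for the difference. An item of the pathway list is not reported here. The members, lists and motifs were chosen with earlier results of these data known. Alternatives were DESeq2 1.42.0 in its default form, DESeq2 size factors, no filter, the replicate block, 12 libraries in 1 fit, GC and length trends removed, a 0.01 threshold and leaving out each library. Exact permutation of 3 against 3 cannot go below p = 0.1 (two-sided).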

Additional observations from a re-analysis of the deposited data

Results flagged for a closer look

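The edgeR test of the difference of TNF-α responses over 12 libraries called 19 members (granulocyte minus promyelocyte log2 change, adjusted p under 0.05). The forms were run as separate experiments, so cell form and experiment cannot be told apart in these differences. The difference was positive for GBP2 (1.64), GBP3 (0.83), IFITM3 (1.62), MX2 (0.47) and TRIM21 (0.36). It was negative for GBP5 (-1.73), CMPK2 (-0.98), IFIT2 (-0.89), IFIT1 (-0.76), XAF1 (-0.75), SAMD9 (-0.67), IFIT3 (-0.63), USP18 (-0.63), HERC5 (-0.62), OAS3 (-0.48), IFI16 (-0.48), TRIM25 (-0.31), SP100 (-0.27) and SP110 (-0.25). Of these, 13 were called in every alternative and in every fit without 1 library. The difference for IFITM3 was not called without vehicle promyelocyte library 1 (1.23, adjusted p = 0.0719, edgeR). That for SP110 was called in only 4 of the 12 fits without 1 library.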

How the results depend on the processing

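No called member changed direction in any alternative. Counts of members called stayed within 1.5 times of the reported value, except for the higher side of the difference of responses, which was 5 and became 3 without the expression filter and 3 at a threshold of 0.01. Leaving out each library gave 7 to 10 members called in promyelocytes (5 to 6 higher, 2 to 4 lower, median -0.03 to -0.0024), 28 to 30 in granulocytes (11 higher in each, 17 to 19 lower, median -0.22 to -0.16) and 17 to 19 for the difference (4 to 6 higher, 12 to 14 lower). In promyelocytes 7 of 9 calls held in every fit, in granulocytes 26 of 30. PARP14 in promyelocytes lost its call without vehicle library 1 or 2 or TNF-α library 1 or 2 (adjusted p up to 0.114, edgeR), and TRIM21 without vehicle library 3 or TNF-α library 1 (up to 0.0592). In granulocytes IFIT1 lost it with DESeq2 (0.0829) and without vehicle library 1 or 2 (up to 0.0607), EIF2AK2 with GC and length trends removed (0.105), DHX58 with DESeq2 (0.153), in the 12-library fit (0.0976) and without vehicle library 1 or 2 or TNF-α library 1 or 3 (up to 0.177), and IFITM2 with DESeq2 (0.139), in the 12-library fit (0.124) and without vehicle library 3 or TNF-α library 2 or 3 (up to 0.317). The difference for IFITM3 was lost without vehicle promyelocyte library 1 (1.23, adjusted p = 0.0719), and those for MX2, USP18, SP100, SP110 and TRIM21 were lost in at least 1 alternative each. Of the 12 fits that each left out 1 library, the difference stayed called in 4 for SP110, 7 for USP18 and 9 for MX2. Calls were also gained: in granulocytes ISG15 in 4 fits, RSAD2 in 2, XAF1 in 1 (without vehicle library 1, adjusted p = 0.0146) and BST2 in 1, and in promyelocytes MX2 in 2. For the difference, TRIM22 gained a call with DESeq2's size factors (0.0412), without the filter (0.0478) and without TNF-α granulocyte library 2 (0.0216). ISG20 was called without vehicle promyelocyte library 3 (0.0415) or TNF-α granulocyte library 3 (0.046). With GC and length trends removed, ISG15 (0.0411), BST2 (0.0468) and SAMD9L (0.00579) were called. GBP1 was called without TNF-α promyelocyte library 1 (0.0321). The promyelocyte counts left in that fit were 0, 3 and 0 with vehicle and 0 and 0 with TNF-α, so no response is read from that call. The cause of these changes was not tested. Same-numbered libraries did not deviate together (correlations -0.132 to -0.0158), so the numbers do not pair them. With the replicate block, promyelocytes kept 9 calls, IFITM2 in granulocytes had adjusted p = 0.06, and the differences of USP18, SP100 and SP110 were no longer called. A depth of 3 counts limits GBP1 and GBP4 in promyelocytes.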
